A study of Mus musculus with 6 samples.

Results

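The genes described here are 33 that mark or maintain blood stem cells and multipotent progenitors. They were measured in myeloerythroid progenitors sorted by the activity of the Hes1 gene. Members were matched by gene symbol: 31 of the 33 had at least 1 array probe set annotated to that symbol alone, out of 18193 genes measured in this way. Ly6a, the gene of the Sca-1 antigen that the sort selected against, was not analysed here, and Gpr56 is listed under its current symbol Adgrg1 and is given separately. GFP-positive cells (3 arrays) were set against GFP-negative cells (3 arrays). Both groups came from the marrow of male mice aged 6 weeks with the genotype Hes1 GFP/WT, that is, 1 reporter allele and 1 wild-type allele, and were sorted as cKit+ and Sca1- cells without lineage markers. Whether the arrays of a group came from separate animals or from pools is not stated in the labels, so a p-value here reflects the spread between these RNA samples alone, which may be technical.

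Blood stem cells sit at the top of the hematopoietic hierarchy, and their transcription factors, surface receptors and adhesion molecules are switched off step by step as progenitors commit to the erythroid, megakaryocytic, granulocytic or lymphoid fates. A part of this gene set is shared with endothelium, from which the first blood stem cells arise in the embryo. Hes1 is a transcriptional repressor and a classical target of Notch receptors. Marrow sorted in this way holds committed myeloid and erythroid progenitors and is largely depleted of stem cells, so a stem gene measured here is either still expressed by progenitors or carried by rare cells. In bulk RNA, fewer cells of a type and less RNA per cell cannot be told apart.

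Hes1 itself had log2 intensities of 7.20, 7.12 and 7.13 on the GFP-positive arrays, against 5.74, 6.01 and 5.90 on the GFP-negative arrays. It was higher in GFP-positive cells by 1.27 (limma adjusted p = 0.00141), in the direction of the sort. Kit, whose product was used for the gate, averaged 11.17 ± 0.06 in GFP-positive cells and 11.42 ± 0.11 in GFP-negative cells (SD, n = 3 each) and did not pass the test (difference -0.25, 95% interval -0.49 to -0.02, adjusted p = 0.138). Values below are log2 of the deposited intensity, for each gene from its probe set of highest mean over the 6 arrays, and a difference is GFP positive minus GFP negative on that scale. A gene passed the test at a Benjamini-Hochberg adjusted p under 0.05 over all 45037 probe sets. GFP-positive array 1 and GFP-negative array 3 stood apart in Jchain, and for short both are called the immunoglobulin arrays below. Jchain, the joining chain of plasma cells, read 8.65, 3.69 and 3.64 on the GFP-positive arrays, against 3.88, 4.08 and 8.85 on the GFP-negative arrays. Igha, a heavy chain gene, was raised on GFP-positive array 1 alone (8.75, against 5.64 to 6.23 on the others). On GFP-negative array 3, Igha, Ighm and Ighg3 were not raised above the other GFP-negative arrays. Calls on members that were lost without the immunoglobulin arrays are given below with and without them. No detection calls were used, and where a group lay at or below 6.36, a level explained below, the difference in intensity is given with no fold.

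Promoters are shown for Hmga2, Emcn and Hlf, the 3 members with the most negative log2 differences, and for Mllt3, a member that rose. These genes stand at or near the ends of the range of differences. The GFP-positive level of Emcn lay below 6.36 (mean 4.07), so its place in this order is uncertain. The promoters run 5′ to 3′ along the gene, from 250 bases before to 50 bases after the annotated start (RefSeq, GRCm38.p6). Capitals mark matches, on either strand, to 6 short motifs. GATA factors are represented by AGATAA and, in a further form, by TGATAA. The ETS core is GGAAG. The N box, which Hes repressors bind, is CACNAG. The E box is CACGTG, and the Runx motif is TGTGGT. None of these motifs contains another.
Hmga2 (chr10:120476420-120476719, reverse strand): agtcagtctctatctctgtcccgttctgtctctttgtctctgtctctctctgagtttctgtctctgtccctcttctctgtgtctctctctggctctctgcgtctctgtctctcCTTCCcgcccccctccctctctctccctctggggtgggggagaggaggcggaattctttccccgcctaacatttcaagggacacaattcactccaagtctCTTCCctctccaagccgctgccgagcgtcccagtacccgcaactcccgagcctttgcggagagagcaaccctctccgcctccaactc
Emcn (chr3:137340828-137341127, forward strand): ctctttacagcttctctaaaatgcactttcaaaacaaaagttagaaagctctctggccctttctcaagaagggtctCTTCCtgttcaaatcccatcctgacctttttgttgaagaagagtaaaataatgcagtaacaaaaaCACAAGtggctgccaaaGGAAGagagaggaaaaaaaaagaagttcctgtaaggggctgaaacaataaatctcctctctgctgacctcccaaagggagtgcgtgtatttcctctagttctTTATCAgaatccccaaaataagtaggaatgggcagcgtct
Hlf (chr11:90390868-90391167, reverse strand): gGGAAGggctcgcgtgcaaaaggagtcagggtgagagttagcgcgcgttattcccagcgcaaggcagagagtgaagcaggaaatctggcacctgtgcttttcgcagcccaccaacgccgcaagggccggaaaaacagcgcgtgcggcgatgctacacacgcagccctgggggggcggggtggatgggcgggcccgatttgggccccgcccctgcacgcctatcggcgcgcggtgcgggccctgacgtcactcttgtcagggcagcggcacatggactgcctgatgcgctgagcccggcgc
Mllt3 (chr4:88033358-88033657, reverse strand): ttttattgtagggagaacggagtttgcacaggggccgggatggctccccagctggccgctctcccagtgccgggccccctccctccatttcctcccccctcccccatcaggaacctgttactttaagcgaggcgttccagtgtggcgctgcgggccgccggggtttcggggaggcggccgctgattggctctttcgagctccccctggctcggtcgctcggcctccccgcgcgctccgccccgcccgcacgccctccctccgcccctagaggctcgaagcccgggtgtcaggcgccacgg
The Hmga2 window held 2 ETS cores and the Hlf window 1. The Emcn window held 2 ETS cores, 1 N box and 1 TGATAA, and the Mllt3 window held no match to these letters.

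Of the 31 members, 24 had a promoter in the RefSeq table. The ETS core lay in 17 of these 24 promoters (70.8%), against 71.1% of all 27025 promoters of the same length. The N box lay in 10 of them (41.7%), against 42.6% of all. TGATAA lay in 3 (12.5%, against 9.23% of all), AGATAA in 1 (4.17%, against 11.4%) and the E box in 2 (8.33%, against 7.24%). TGTGGT lay in none of the 24, against 16.9% of all promoters. Median GC content was 58.7% for the members and 52.7% for all promoters. These matches describe letters in a window and no binding was measured.

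In GFP-positive cells most of the stem and multipotent genes were less abundant. Of the 31, 18 fell (58.1%), whereas 9.92% of all 18193 genes were called lower. Another 4 rose (12.9%), where 8.15% of all genes were called higher, and 9 did not pass. The median difference of the 31 genes was -0.98, with quartiles of -1.63 and -0.08, against a median of 0.11 over all genes. Of the 31, 14 (45.2%) were called lower with a fall of at least 2-fold, against 5.82% of all genes. These 14 include 4 (Emcn, Procr, Eya1 and Ndn) whose GFP-positive mean lay at or below 6.36, so their folds are uncertain. Robo4 had a difference of -1.58 but did not pass. Called higher with a rise of at least 2-fold were 2 members. The groups did not overlap in 24 of the 31 genes, against 45.6% of all genes in either direction. The genes were chosen with earlier results of these data known, so these shares describe the chosen genes.

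**Figure D1:**
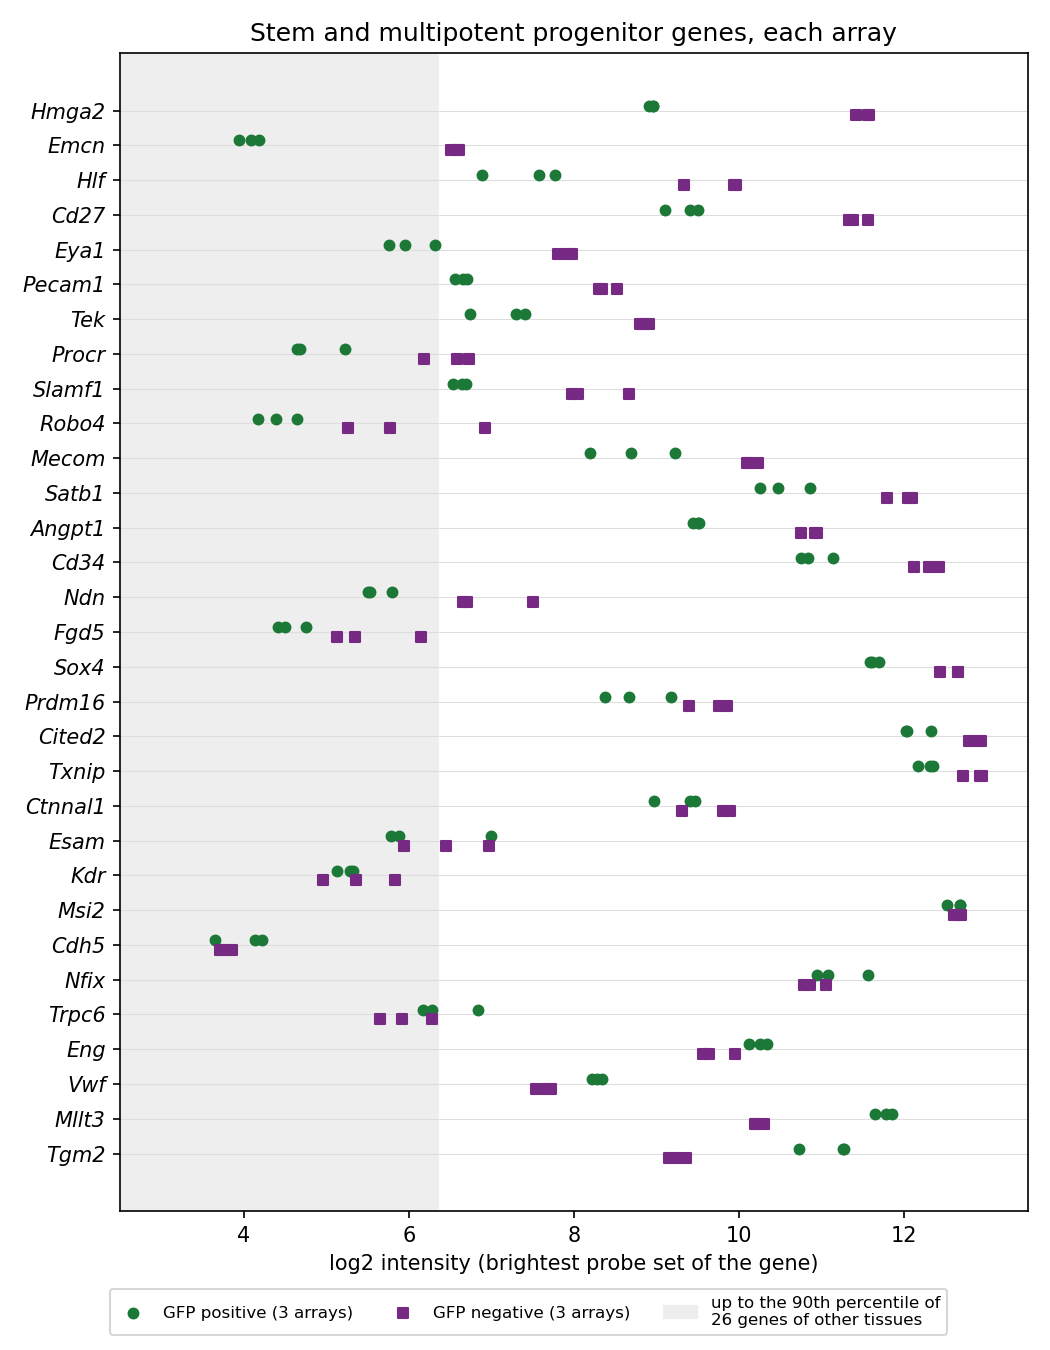
Each row is 1 of the 31 genes, ordered by difference, with the log2 intensity of its brightest probe set on the 3 GFP-positive arrays (green circles) and the 3 GFP-negative arrays (purple squares); grey marks levels up to 6.36, the 90th percentile of 26 genes of other tissues. Circles lie left of the squares in the upper rows, from Hmga2 with a difference of -2.58, and right of them in the lowest 4 rows (Eng, Vwf, Mllt3 and Tgm2).

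Probe sets differ in how brightly they bind, so their levels do not rank genes by RNA amount and serve here to show which values lie near the dim end of the scale. Means over the 6 arrays lay between 3.89 and 12.64 with a median of 9.21, against 7.21 for all genes. The median over the 31 genes was 8.67, 8.37 and 8.28 on the GFP-positive arrays, against 9.33, 9.40 and 9.64 on the GFP-negative arrays. The ranges of these medians did not overlap. As a guide to that end, 26 measured genes of brain, liver, muscle and other tissues were used. The level of 6.36 was set at the 90th percentile of their means, so by construction 23 of the 26 lay at or below it. Of the members, 9 lay at or below that level, of which 3 passed the test (Emcn, Procr and Ndn), and 22 lay above it, of which 19 passed. Each array was the highest or lowest of its group for some members, so no single array set the order throughout. GFP-positive array 3 was the highest of its group for 18 of the 31 genes. The median SD of the members was 0.20 in GFP-positive cells and 0.13 in GFP-negative cells, against 0.15 and 0.14 for all genes.

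Among the 11 nuclear regulators, 9 fell (81.8%, against 9.92% of all genes), 1 rose (9.09%, against 8.15%) and 1 did not pass. The median difference of the 11 was -1.35. Hmga2, a chromatin-bending protein of fetal and self-renewing stem cells, had values of 8.91, 8.95 and 8.96 on the GFP-positive arrays, against 11.42, 11.57 and 11.58 on the GFP-negative arrays. Every GFP-positive array lay more than 2 log2 units below every GFP-negative one. Its level was 5.98-fold lower (difference -2.58, 95% interval -2.80 to -2.36, adjusted p = 9.36e-04), and 3 of its 4 probe sets were called lower.

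Hlf, a leucine zipper factor that keeps stem cells quiescent, had values of 6.89, 7.57 and 7.77 on the GFP-positive arrays, against 9.33, 9.94 and 9.96 on the GFP-negative arrays. Array 1 was the lowest in both groups, and the groups stayed apart. Hlf was 5.04-fold lower in GFP-positive cells (adjusted p = 0.00392), with both probe sets called. Eya1, a coactivator with phosphatase activity, had values of 5.95, 5.76 and 6.32 on the GFP-positive arrays, against 7.93, 7.98 and 7.81 on the GFP-negative arrays. The GFP-positive levels lay at the dim end, and the difference was -1.89 (adjusted p = 0.00148), but its other 2 probe sets did not pass, with differences of -0.80 (adjusted p = 0.305) and 0.11 (adjusted p = 0.689). With the probe sets averaged the difference was -0.86 (adjusted p = 0.0425).

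Satb1, a chromatin organiser that primes lymphoid potential, had values of 10.48, 10.26 and 10.87 on the GFP-positive arrays, against 11.80, 12.10 and 12.05 on the GFP-negative arrays. All 3 GFP-positive arrays were lower, and each of its 5 probe sets was called lower with differences from -2.69 to -0.96. For the brightest probe set the fall was 2.73-fold (adjusted p = 0.00443), and without the pair of immunoglobulin arrays the adjusted p was 0.0665. The probe set of highest variance gave the difference of -2.69. Mecom, the zinc finger factor also called Evi1 that stem cells require, had values of 8.69, 9.22 and 8.19 on the GFP-positive arrays, against 10.10, 10.12 and 10.23 on the GFP-negative arrays. The GFP-positive arrays were spread over about 1 log2 unit, whereas the GFP-negative ones lay close together. Mecom was 2.73-fold lower (adjusted p = 0.0141), with an adjusted p of 0.0556 without GFP-negative array 3 and 0.124 without both immunoglobulin arrays. Its other 2 probe sets were dim, at means of 3.85 and 3.65, and did not pass, with differences of 0.27 and 0.23. With the 3 probe sets averaged the difference was -0.31 and the call was lost (adjusted p = 0.156).

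Ndn, or necdin, an imprinted growth suppressor linked to stem cell quiescence in mice, had values of 5.50, 5.80 and 5.53 on the GFP-positive arrays, against 6.66, 7.51 and 6.70 on the GFP-negative arrays. The GFP-positive levels lay at the dim end, and GFP-negative array 2 was above the other GFP-negative arrays. The difference was -1.35 (adjusted p = 0.0164), with 3 of its 8 probe sets called, and -0.75 with the probe sets averaged. The call was lost without GFP-positive array 1 (0.0516), without GFP-positive array 3 (0.0550) and without both immunoglobulin arrays (0.0953). Sox4, an HMG box factor of stem and lymphoid progenitors, had values of 11.62, 11.59 and 11.69 on the GFP-positive arrays, against 12.44, 12.65 and 12.66 on the GFP-negative arrays. These narrow groups differed by 1.94-fold (lower, adjusted p = 0.00278), and 6 of its 8 probe sets were called. The probe set of highest variance gave a difference of -1.59.

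Prdm16, a zinc finger methyltransferase needed for stem cell maintenance, averaged 8.74 ± 0.41 in GFP-positive cells and 9.67 ± 0.24 in GFP-negative cells (SD, n = 3 each). It was 1.91-fold lower, just inside the threshold (adjusted p = 0.0454), with 1 of 4 probe sets called. Prdm16 kept the call without GFP-positive array 3 (0.0230) and lost it without any other single array (0.0660 to 0.135), and the adjusted p was 0.233 without both immunoglobulin arrays. With the probe sets averaged the difference was -0.50 (adjusted p = 0.202). Cited2, a CBP-binding coactivator that stem cells need, averaged 12.13 ± 0.17 in GFP-positive cells and 12.87 ± 0.07 in GFP-negative cells (SD, n = 3 each). It was 1.67-fold lower (adjusted p = 0.0100) with 1 of 2 probe sets called.

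Mllt3, a subunit of the transcription elongation machinery that sustains stem cells in human blood, moved the other way, with values of 11.66, 11.79 and 11.85 on the GFP-positive arrays, against 10.30, 10.21 and 10.19 on the GFP-negative arrays. All GFP-positive arrays were higher by more than 1 log2 unit. It was 2.89-fold higher (difference 1.53, 95% interval 1.30 to 1.76, adjusted p = 0.00108), and each of its 3 probe sets was called higher. Nfix, a nuclear factor of stem cell survival, had values of 11.57, 11.09 and 10.95 on the GFP-positive arrays, against 11.05, 10.86 and 10.80 on the GFP-negative arrays. The groups overlapped, the difference was 0.30 (95% interval -0.13 to 0.73, adjusted p = 0.302), and its 5 probe sets, none of them called, had differences from 0.12 to 0.37.

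**Figure D2:**
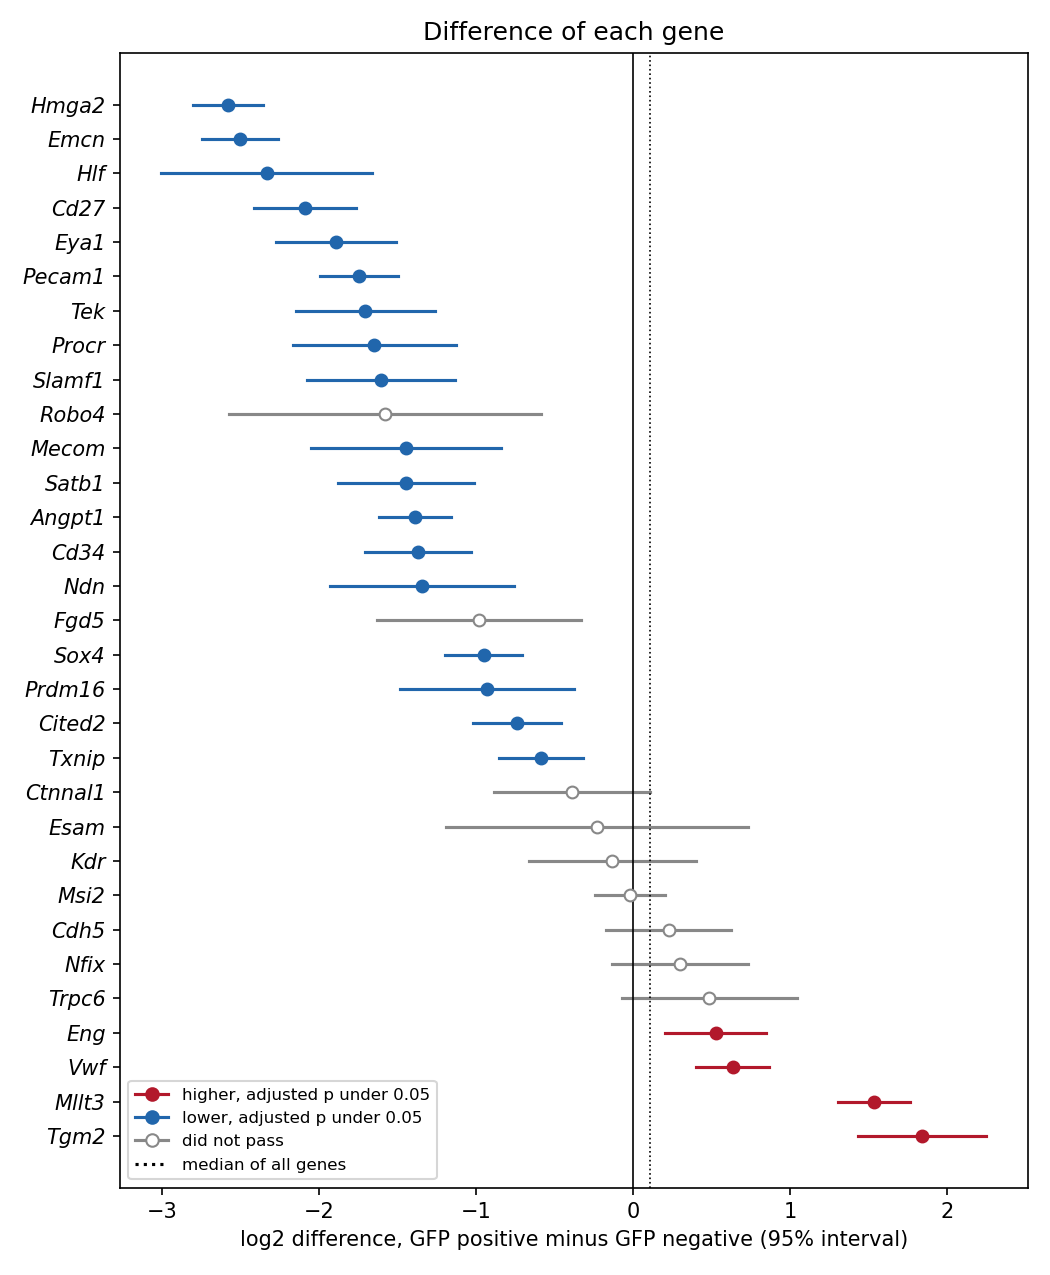
Points give the log2 difference, GFP positive minus GFP negative, of each of the 31 genes with its 95% interval; blue marks genes called lower, red genes called higher and grey genes that did not pass, and the dotted line is the median of all genes at 0.11. The differences run from -2.58 for Hmga2 to 1.84 for Tgm2, and the intervals of Robo4 and Fgd5 lie below 0 although neither passed after adjustment.

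The 4 surface antigens that were measured under their own symbols all fell (against 9.92% of all genes), with a median difference of -1.63. Cd27, a costimulatory receptor present on multipotent progenitors, had values of 9.50, 9.11 and 9.41 on the GFP-positive arrays, against 11.39, 11.57 and 11.34 on the GFP-negative arrays. It was 4.26-fold lower in GFP-positive cells (adjusted p = 0.00108), with groups about 2 log2 units apart. Cd34, the sialomucin by which myeloid progenitors are separated from erythroid ones, had values of 10.76, 10.84 and 11.14 on the GFP-positive arrays, against 12.12, 12.42 and 12.30 on the GFP-negative arrays. It remained bright in both groups and was 2.58-fold lower (adjusted p = 0.00251).

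Procr, the endothelial protein C receptor used to isolate stem cells, had values of 4.65, 4.68 and 5.23 on the GFP-positive arrays, against 6.73, 6.59 and 6.18 on the GFP-negative arrays. The GFP-positive levels were in the range of genes of other tissues, and the difference was -1.65 (adjusted p = 0.00535), or -1.01 with 32 added to the intensities. Slamf1, the CD150 antigen of stem cells and of some megakaryocyte and erythroid progenitors, had values of 6.64, 6.54 and 6.69 on the GFP-positive arrays, against 8.05, 7.98 and 8.67 on the GFP-negative arrays. GFP-negative array 3 was the highest, and the groups did not overlap. Slamf1 was 3.05-fold lower by its brightest probe set (adjusted p = 0.00424), whereas its other 2 probe sets had differences of -1.01 (adjusted p = 0.115) and -0.49 (adjusted p = 0.283). With the probe sets averaged the difference was -1.04. Adgrg1, the adhesion receptor formerly called Gpr56, had values of 10.84, 10.74 and 10.69 on the GFP-positive arrays, against 11.76, 11.89 and 11.81 on the GFP-negative arrays. It was 2.09-fold lower (adjusted p = 0.00156), and its second probe set had a difference of -1.09 (adjusted p = 0.00198).

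Of the 11 genes grouped as shared with endothelium, 4 fell (36.4%, against 9.92% of all genes), 2 rose (18.2%, against 8.15%) and 5 did not pass. The median difference of the 11 was -0.98. Angpt1 was placed among them as the ligand of Tek and is not itself an endothelial marker. The ligand Angpt1 and its receptor Tek, whose signal holds stem cells in quiescence in the marrow niche, both fell. Angpt1 had values of 9.45, 9.50 and 9.51 on the GFP-positive arrays, against 10.76, 10.95 and 10.93 on the GFP-negative arrays, a separation of more than 1 log2 unit. It was 2.62-fold lower (adjusted p = 0.00113), with both probe sets called. Tek had values of 6.74, 7.40 and 7.30 on the GFP-positive arrays, against 8.85, 8.80 and 8.91 on the GFP-negative arrays, with GFP-positive array 1 the lowest. It was 3.26-fold lower (adjusted p = 0.00289).

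Emcn, or endomucin, a sialoglycoprotein of endothelium and stem cells, had values of 3.94, 4.19 and 4.08 on the GFP-positive arrays, against 6.61, 6.60 and 6.52 on the GFP-negative arrays. On the GFP-positive arrays it lay within the range of the genes of other tissues. The difference was -2.50 (adjusted p = 9.36e-04), or -1.38 with 32 added to the intensities. Pecam1, the CD31 adhesion molecule, had values of 6.66, 6.56 and 6.71 on the GFP-positive arrays, against 8.53, 8.34 and 8.30 on the GFP-negative arrays. The arrays of each group lay close together, and Pecam1 was 3.35-fold lower (adjusted p = 0.00108).

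Vwf, the platelet-adhesive von Willebrand factor of endothelium and megakaryocytes, had values of 8.35, 8.21 and 8.28 on the GFP-positive arrays, against 7.68, 7.54 and 7.73 on the GFP-negative arrays. It was 1.55-fold higher in GFP-positive cells (adjusted p = 0.00913, and 0.0701 without both immunoglobulin arrays). Eng, or endoglin, a TGF-beta co-receptor that is also found on early erythroid progenitors, had values of 10.34, 10.26 and 10.13 on the GFP-positive arrays, against 9.95, 9.57 and 9.64 on the GFP-negative arrays. It was 1.44-fold higher, close to the threshold (adjusted p = 0.0489), with both probe sets called. Eng kept the call without GFP-negative array 1 (0.0268) and lost it without any other single array (0.0822 to 0.147), and the adjusted p was 0.246 without both immunoglobulin arrays.

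Robo4, a guidance receptor that anchors stem cells in the niche, had values of 4.17, 4.39 and 4.64 on the GFP-positive arrays, against 6.92, 5.26 and 5.77 on the GFP-negative arrays. Fgd5, a gene used to mark stem cells in reporter mice, had values of 4.75, 4.50 and 4.41 on the GFP-positive arrays, against 5.13, 5.34 and 6.14 on the GFP-negative arrays. In both genes the groups did not overlap, yet 1 GFP-negative array stood above the others and neither gene passed. The difference was -1.58 for Robo4 (95% interval -2.57 to -0.59, adjusted p = 0.0525). For Fgd5 it was -0.98 (95% interval -1.63 to -0.33, adjusted p = 0.0606). Robo4 passed without GFP-negative array 1 (0.0356) or 2 (0.0364), and Fgd5 passed without GFP-negative array 1 (0.0489).

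The defining endothelial genes Cdh5 (VE-cadherin) and Kdr (the main VEGF receptor) were dim in both groups. Cdh5 had values of 3.65, 4.13 and 4.22 on the GFP-positive arrays, against 3.76, 3.86 and 3.71 on the GFP-negative arrays. Kdr had values of 5.32, 5.29 and 5.13 on the GFP-positive arrays, against 4.96, 5.83 and 5.36 on the GFP-negative arrays. Neither passed, with differences of 0.22 (95% interval -0.17 to 0.62, adjusted p = 0.393) for Cdh5 and -0.13 (95% interval -0.66 to 0.40, adjusted p = 0.710) for Kdr. Esam, an adhesion molecule of endothelium and stem cells, had values of 5.88, 5.78 and 7.0 on the GFP-positive arrays, against 6.97, 5.94 and 6.45 on the GFP-negative arrays. Its groups overlapped widely (difference -0.23, 95% interval -1.19 to 0.73, adjusted p = 0.721), and this wide interval holds sizeable changes in either direction.

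Among 14 further endothelial genes, Egfl7 fell (difference -0.49), Cldn5 (0.37) and Plvap (0.87) rose, and the others did not pass. The shares called were 7.14% lower and 14.3% higher, against 9.92% and 8.15% of all genes. Cldn5 lost the call without any 1 array, Egfl7 kept it in 1 of 6 such fits, and without both immunoglobulin arrays the adjusted p was 0.181 for Cldn5, 0.0820 for Egfl7 and 0.0625 for Plvap. Their median level was 5.29 and their median difference 0.11, equal to that of all genes. On single arrays their median level was 5.35, 5.29 and 5.35 in GFP-positive cells, against 4.90, 5.25 and 5.36 in GFP-negative cells. The ranges of these medians overlapped, and most of the 14 genes were dim. Stromal genes had medians of 5.16, 4.82 and 4.93 on the GFP-positive arrays, against 4.55, 4.43 and 4.51 on the GFP-negative arrays, and these medians did not overlap. Genes of other tissues also lay higher, with 5.07, 5.13 and 5.22 on the GFP-positive arrays, against 5.03, 4.93 and 4.92. Genes of T and natural killer cells did too, with 5.38, 5.66 and 5.43, against 4.87, 4.73 and 4.95. Of the 12 stromal genes, 3 had a difference below 0 and 1 was called lower (8.33%, against 9.92% of all genes). The gene called was Pdgfrb, a growth factor receptor of perivascular cells, which was 2.58-fold lower in GFP-positive cells (adjusted p = 0.00286). The collagen gene Col1a1 and Cxcl12 are named after their values were seen, and neither passed. Col1a1 had values of 6.14, 8.27 and 6.04 on the GFP-positive arrays, against 4.87, 4.78 and 5.10 on the GFP-negative arrays (adjusted p = 0.0823). Cxcl12 had values of 6.83, 4.67 and 5.85 on the GFP-positive arrays, against 4.31, 4.26 and 4.55 on the GFP-negative arrays (adjusted p = 0.117). The part of stromal RNA in the member differences was not tested.

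Msi2, an RNA-binding protein that regulates stem cell division, had values of 12.68, 12.53 and 12.68 on the GFP-positive arrays, against 12.61, 12.65 and 12.69 on the GFP-negative arrays. The groups overlapped, and the interval of the difference ran from -0.24 to 0.20 (adjusted p = 0.895). None of its 8 probe sets passed.

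The remaining 4 members were placed in none of the groups above. Tgm2, a transglutaminase that crosslinks proteins, had values of 11.27, 10.73 and 11.27 on the GFP-positive arrays, against 9.36, 9.24 and 9.15 on the GFP-negative arrays. Every GFP-positive array was above every GFP-negative one by more than 1 log2 unit. Tgm2 had the largest rise of the 31 genes, 3.58-fold (difference 1.84, 95% interval 1.43 to 2.25, adjusted p = 0.00183), and 5 of its 6 probe sets were called higher.

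Txnip, a thioredoxin-binding protein that restrains glucose uptake, averaged 12.28 ± 0.10 in GFP-positive cells and 12.87 ± 0.13 in GFP-negative cells (SD, n = 3 each). It was 1.5-fold lower (adjusted p = 0.0185), but the call was lost without GFP-negative array 1 (0.0518), GFP-negative array 3 (0.0731), GFP-positive array 2 (0.0638) or GFP-positive array 3 (0.0531), and at 0.115 without both immunoglobulin arrays. Ctnnal1, an alpha-catenin-like protein used as a stem cell reporter gene, had values of 8.97, 9.41 and 9.47 on the GFP-positive arrays, against 9.31, 9.89 and 9.81 on the GFP-negative arrays. Trpc6, a calcium channel, had values of 6.18, 6.28 and 6.84 on the GFP-positive arrays, against 5.65, 6.27 and 5.92 on the GFP-negative arrays. Both pairs of groups overlapped and neither gene passed, with differences of -0.39 (95% interval -0.89 to 0.11, adjusted p = 0.247) for Ctnnal1 and 0.48 (95% interval -0.07 to 1.04, adjusted p = 0.208) for Trpc6.

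The 31 genes had 86 probe sets, of which 33 were called lower (7.66% of all 45037 probe sets were) and 11 higher (6.35% of all were). Of the 19 genes with several probe sets, no gene had calls in both directions. Only genes with 2 or more called probe sets could show a disagreement: Hmga2, Hlf, Satb1, Angpt1, Ndn, Sox4, Eng, Mllt3 and Tgm2. In the rest at most 1 probe set passed. All probe sets were called in 5 genes: Hlf with 2, Mllt3 with 3, Satb1 with 5, Angpt1 with 2 and Eng with 2. Of the 42 probe sets that did not pass, 27 lay at or below 6.36, whereas 7 of the 44 that passed did. Probe sets of 1 gene share its RNA and were not counted as replicates.

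**Figure D3:**
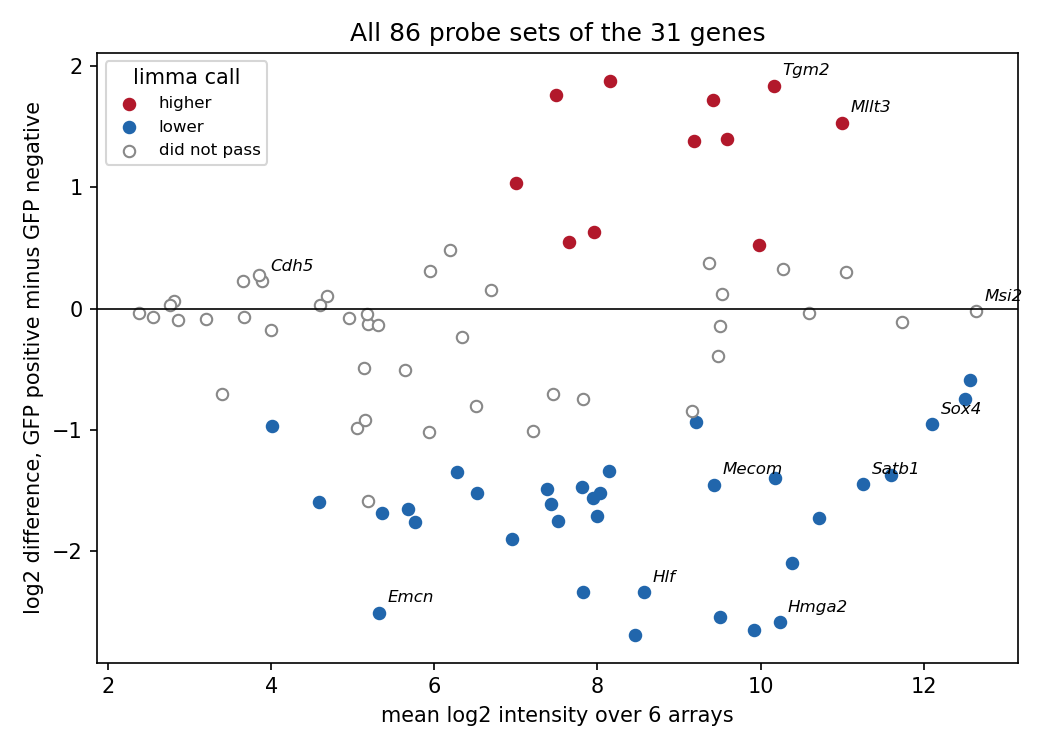
Each point is 1 of the 86 probe sets of the 31 genes, placed by its mean log2 intensity over the 6 arrays and its log2 difference, GFP positive minus GFP negative; blue and red points were called lower and higher. The open points gather at the dim left end, where 27 of the 42 that did not pass lie at or below 6.36, and the red points belong to 4 genes.

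A further list of stem and multipotent genes that excludes the 31 members was measured in 58 genes. Selp and Mmrn1 among them also belong to the megakaryocyte list below, and Cdkn1c to the cell cycle list. Of the 58, 29 fell (50%, against 9.92% of all genes) and 5 rose (8.62%, near the 8.15% of all genes). The median difference of the 58 was -0.55. Leaving out GFP-negative array 2 gave 18 falls, leaving out array 3 of that group gave 17, and 11 were found without both immunoglobulin arrays. Flt3, the receptor that marks lymphoid-primed progenitors, was 8.73-fold lower (adjusted p = 0.00154) and Meis1, a homeobox partner of Hox factors, was 4.66-fold lower (adjusted p = 0.00297). The adhesion receptor Adgrg3 was 4.48-fold lower (adjusted p = 9.36e-04), and Rgs1, a brake on G protein signals, was 3.85-fold lower (adjusted p = 0.0101, and 0.0936 without both immunoglobulin arrays). Erg, an ETS factor that stem cells require, was 3.29-fold lower (adjusted p = 0.00108), and Cd48, an antigen absent from stem cells and gained by progenitors, was 2.88-fold lower (adjusted p = 0.00268).

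The 5 that rose are named after their values were seen. They were the retinoid receptor gene Rarb (difference 0.98), the efflux transporter Abcg2 (0.74), the scramblase Plscr1 (0.65, but -0.17 with its probe set of highest variance), the blood cell master factor Tal1 (0.65) and the homeobox gene Nkx2-3 (0.50). Tal1 and Abcg2 are also active in erythroid cells. Without both immunoglobulin arrays the adjusted p was 0.0526 for Abcg2, 0.0748 for Tal1, 0.0820 for Plscr1 and 0.152 for Nkx2-3, and Rarb lost the call without any 1 array (0.0635 to 0.108).

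Genes of 2 committed lineages moved in opposite directions in the same samples. Of 15 erythroid genes, 10 rose (66.7%, against 8.15% of all genes), with a median difference of 0.82. Their median level was 12.33, 12.61 and 12.48 on the GFP-positive arrays, against 11.50, 11.26 and 11.21 on the GFP-negative arrays, and the sphingosine kinase Sphk1 was 3.55-fold higher (adjusted p = 9.36e-04). Epor, the erythropoietin receptor, was 3.26-fold higher (adjusted p = 0.00118). Of 14 granulocyte and monocyte genes, 13 fell (92.9%, against 9.92% of all genes), with a median difference of -1.52. Their median level was 10.71, 10.08 and 10.88 on the GFP-positive arrays, against 12.34, 12.31 and 12.41 on the GFP-negative arrays. Irf8, a factor of monocyte and dendritic fate, was 5.37-fold lower (adjusted p = 0.00108), and Csf1r, the receptor for macrophage colony-stimulating factor, was 6.69-fold lower (adjusted p = 0.00530, and 0.0624 without both immunoglobulin arrays). The part of lineage makeup in the member differences was not tested.

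Of 13 megakaryocyte genes, Selp and Itgb3 fell (15.4%, against 9.92% of all genes), Gp5 rose (7.69%, against 8.15%) and the others did not pass. The median difference of the 13 was -0.02. With 1 array left out, Selp and Itgb3 each kept the call in 1 of 6 fits and Gp5 in 2, and without both immunoglobulin arrays the adjusted p was 0.0647 for Itgb3 and 0.114 for Gp5. Of 13 B-lineage genes, Ighm, Cd79b and Cd74 fell (23.1%, against 9.92% of all genes, median difference -0.02). Of 11 genes of T and natural killer cells, Nkg7 fell (9.09%, near that share, median difference 0.55). Of 9 cell cycle genes, Cdkn1a fell (11.1%) and Ccne1 and Cdk1 rose (22.2%, against 8.15% of all genes). The 26 genes of other tissues had a median difference of 0.18. Gfap and Cela1 among them were called higher (7.69%, near the 8.15% of all genes). Without both immunoglobulin arrays the adjusted p was 0.0625 for Cd74, 0.0781 for Nkg7, 0.0617 for Ccne1, 0.145 for Cdk1 and 0.0761 for Gfap. Ighm lost the call with its probe sets averaged (difference -0.35, adjusted p = 0.182).

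**Figure D4:**
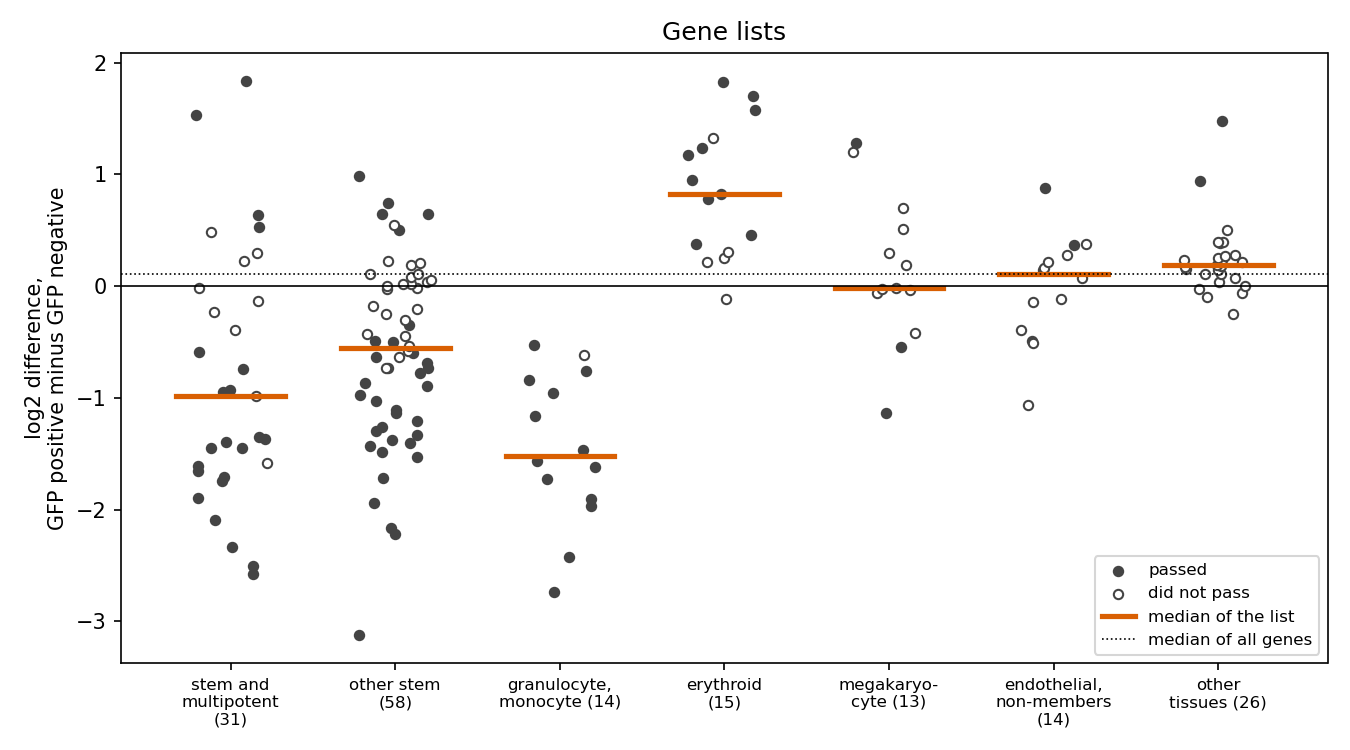
Each point is 1 gene, placed by its log2 difference (GFP positive minus GFP negative) in 1 of 7 lists whose sizes stand below; filled points passed the test, orange bars are list medians and the dotted line is the median of all genes. The medians are -0.98 for the 31 stem and multipotent genes, -0.55 for the other stem genes, -1.52 for granulocyte and monocyte genes and 0.82 for erythroid genes.

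Of the 22 members that passed, 17 kept the call without any 1 of the 6 arrays. The exceptions were Mecom, Ndn, Prdm16, Txnip and Eng. Without GFP-positive array 1 and GFP-negative array 3 together, 15 kept it, with 13 members called lower and 2 higher. Beside the 5 named above, Satb1 and Vwf lost it. Among those kept were Hmga2, Emcn, Hlf, Cd27, Pecam1, Tek, Mllt3 and Tgm2.

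**Figure D5:**
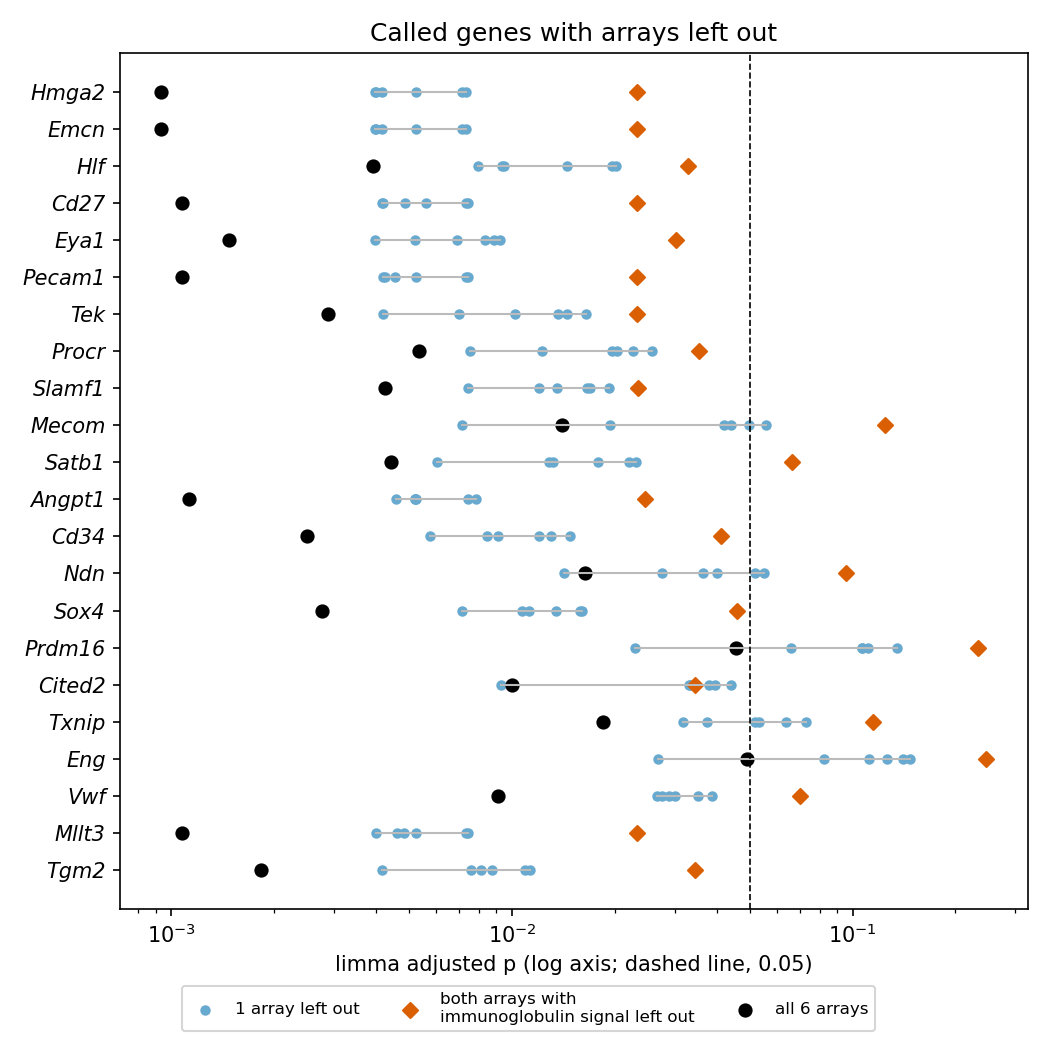
For each of the 22 genes that passed, black points give the limma adjusted p on a log axis with all 6 arrays, blue points with 1 array left out and orange diamonds without GFP-positive array 1 and GFP-negative array 3, and the dashed line is 0.05. The 17 genes whose blue points all lie left of the line kept the call throughout, and 15 diamonds lie left of it.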

How the data were processed

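RNA of 6 samples, 3 GFP-positive and 3 GFP-negative, had been hybridised to Affymetrix arrays after 5 ng of total RNA was amplified and biotin-labelled with NuGEN kits, per the labels' protocols. The deposited values are linear probe set intensity values made by the authors with RMA, per the submitters' processing notes; version and settings: not given in the sources used here. No detection calls were used, and the 3 arrays per group limit the precision.

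Intensities were taken to log2 without further normalization. Of 45101 probe sets, 64 controls were left out and 45037 tested. GEO's platform annotation named 1 gene for 34945, several for 932 and none for 9160. The test was limma's moderated statistic (version 3.58.1, R 4.3.3; lmFit, eBayes, 2-sided, no covariate; total degrees of freedom 6.38), with Benjamini-Hochberg adjustment over all tested probe sets. The script was tested on simulated data. The members and gene lists were chosen with earlier results of these data known. Named genes were all members, and in each other list up to 6 genes past the threshold with the largest changes (or the 2 of highest mean where fewer than 2 passed), of which the text gives some. The promoters shown are those of the 3 members with the most negative log2 differences and of the largest rise that had one. Alternatives changed the normalization, the prior, the probe set rule, the filter on dim probe sets, a constant of 32 added to the intensities, the replicate number as a block, and the arrays used. The array medians of intensity were 62.1, 60.8 and 59.9 in GFP-positive samples, against 64.8, 63.6 and 64.4 in GFP-negative samples. Arrays of 1 group correlated at 0.989 to 0.993, and arrays of different groups at 0.973 to 0.979. Promoters were read from RefSeq (GRCm38.p6) by gene symbol.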

Additional observations from a re-analysis of the deposited data

How the results depend on the processing

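The count of members called lower was 18, and 15 to 18 with 1 array left out, 13 without both immunoglobulin arrays and 15 to 20 under the other settings. Members called higher numbered 4, and 3 to 4 with 1 array left out, and 2 without both immunoglobulin arrays. The members' median difference was -0.98, with -1.15 to -0.91 with 1 array left out, -1.37 with the probe set of highest variance and -0.75 with a gene's probe sets averaged. The other stem genes called lower numbered 29, 17 to 27 with 1 array left out and 11 without both immunoglobulin arrays. Those called higher numbered 5, 3 with probe sets averaged, and 3 to 5 with 1 array left out (5 without GFP-negative array 1, 3 without any other). Without both immunoglobulin arrays limma called 0 of these 58 genes higher, while 5 had an unadjusted p under 0.05 in that direction; no other tool was run. Over all probe sets, 3452 were called lower, 2192 (without GFP-negative array 3) to 3098 with 1 array left out and 1652 without both; without GFP-negative array 2 there were 2300. Called higher were 2860, 1212 (without GFP-negative array 3) to 2243 with 1 array left out and 681 without both, and 5218 with array medians subtracted. Higher calls made up 45.3% of all probe set calls, 61.5% with array medians subtracted and 29.2% without both immunoglobulin arrays. The causes of these shifts were not tested, though fewer arrays leave fewer degrees of freedom.

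Signs turned in genes near 0: with 1 array left out, Esam ranged from -0.62 to 0.027 (above 0 without GFP-negative array 1), Kdr from -0.35 to 0.089 (above 0 without GFP-negative array 2) and Msi2 from -0.046 to 0.029 (above 0 without GFP-positive array 2 or GFP-negative array 3). Msi2 had 0.056 with array medians subtracted. Away from 0, Plscr1 had a rise of 0.65 and -0.17 with its probe set of highest variance. Robo4 passed with array medians subtracted (adjusted p = 0.0485), quantile normalization (0.0442), an intensity trend with robust priors (0.0315) and averaged probe sets (0.0487). Fgd5 passed with the trend and robust priors (0.0435).

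Same-numbered arrays did not deviate together (correlations of 0.023, 0.055 and 0.019), so the numbers were not taken as pairs, although each GFP-positive array correlated best with its own number. With the replicate block, 18 members were called lower and 3 higher, with Eng lost at an adjusted p of 0.0573, and 2872 probe sets were called lower and 1969 higher. Of the other stem genes, 24 were called lower and 4 higher with the block. Dim probe sets limit Cdh5, Kdr, Esam, Robo4, Fgd5 and Trpc6, all at or below 6.36.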
